A study of Gossypium hirsutum with 24 samples.

Results

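KCS12 and FDH are 2 of the cotton genes that code for 3-ketoacyl-CoA synthases, the enzymes that begin each round of very-long-chain fatty acid synthesis. The members were all probe sets (groups of short probes that read 1 transcript) that the array's annotation ties to either gene and to no other gene. This gave 1 probe set per gene, 2 of the 23973 tested, and 2 of the 520 genes that had a probe set of their own. KCS12 (LOC107928969, also named xl1, chromosome D01) was read by a probe set of sense design. FDH (LOC107893385, also named KCS45, chromosome A13) was read by a sense probe set whose suffix _x_at marks probes that can bind related transcripts. Gene names and chromosomes are those of the RefSeq table for the assembly Gossypium_hirsutum_v2.1. Upland cotton carries an A and a D subgenome, and whether either probe set also reads the copy on the other subgenome was not tested.

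A 3-ketoacyl-CoA synthase joins an acyl-CoA chain to malonyl-CoA in the endoplasmic reticulum. A reductase, a dehydratase and a second reductase then finish the cycle, and the synthase sets which chain lengths are made. The products go into cuticular wax, cutin-bound and suberin-like layers, sphingolipids and membrane lipids. In cotton the fibre is a single outgrown cell of the seed coat epidermis, and very-long-chain fatty acids added to cultured ovules are known to promote fibre elongation and to raise ethylene synthesis. FIDDLEHEAD, the Arabidopsis gene from which FDH takes its name, acts in the epidermis and keeps young organs from fusing.

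Transcripts were measured with the Affymetrix cotton GeneChip on 24 arrays, 3 biological replicates for each of 8 groups of field-grown Gossypium hirsutum cv. Bikaneri Nerma. Watered control plants and drought plants were sampled on the day of flowering, 0 days post anthesis (dpa), and at 5, 10 and 20 dpa. Whole bolls gave the RNA at 0 and 5 dpa, fibre-bearing ovules at 10 and 20 dpa, and leaf is also mentioned in the collection note of the 0 dpa samples. Of 12 adjacent plots 6 were droughted by stopping irrigation at peak flowering under a rain shelter, and were sampled once soil moisture had fallen to 19.5%, 50% of that of control plots, 18 to 19 days later. The labels do not say which plots the replicates came from, so the p-values measure the spread between these samples.

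The deposited log2 signals were centred so that the 6 arrays of 1 stage have a median of 0 for every probe set. Within a stage they show how drought differs from control, and between stages how that difference changes. They do not hold the level of a transcript or its course over time in control plants, so KCS12 and FDH cannot be ranked by level. Where the groups of a stage do not overlap, this centring makes the lowest control and the highest drought value mirror images around 0.

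The arrays differed by treatment beyond single genes. By limma, 44.2%, 58.2%, 60.3% and 60.0% of all probe sets were called (adjusted p under 0.05) at 0, 5, 10 and 20 dpa, and of the calls 48.3%, 42.6%, 47.3% and 43.3% were higher in drought. As shares of all probe sets, 22.9%, 33.4%, 31.8% and 34.0% were called lower and 21.4%, 24.8%, 28.5% and 26.0% higher. With arrays scaled on the bacterial poly-A control probe sets, the higher share became 22.1%, 69.0%, 5.21% and 4.51%. With arrays scaled on the bacterial hybridisation controls it became 58.0%, 40.5%, 18.9% and 84.0%. Drought minus control, the mean log2 signal of the poly-A controls was 0.22, −0.24, 1.26 and 1.10 at the 4 stages, and scaling on them subtracts that shift from every probe set. The labels do not state that poly-A transcripts were added. The 5′ minus 3′ signal of cotton control transcripts, which falls as RNA degrades, was higher in drought arrays by 0.66, 0.30, 0.36 and 1.17 in log2. Control and drought arrays did not overlap in this signal at any stage (at 20 dpa −0.76 to −0.44 against 0.45 to 0.67). A fit with it as a covariate therefore parts it from drought only weakly.

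KCS12 was not called between drought and control bolls at 0 dpa and was lower in drought at each later stage, by 2.14-fold at 5 dpa, 6.31-fold at 10 dpa and 9.69-fold at 20 dpa. At 0 dpa the centred log2 signal of KCS12 was −0.11, 0.12 and 0.078 in control replicates 1, 2 and 3, and −0.21, −0.078 and 0.11 in the drought replicates. The groups overlapped, and the log2 difference (drought minus control) was −0.090 ± 0.13 (SE, n = 3 per group, 95% interval −0.36 to 0.18, limma adjusted p = 0.609).

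At 5 dpa KCS12 stood at 0.80, 0.44 and 0.53 in control bolls and at −0.44, −0.55 and −0.52 in drought bolls. Every drought array lay below every control array, which also held for 38.5% of all probe sets at this stage. The log2 difference of KCS12 was −1.09 ± 0.13 (SE, n = 3 per group, limma adjusted p = 2.33e-07), and 33.4% of all probe sets were called lower at 5 dpa. In these bulk samples fewer fibre or other epidermal cells and less RNA per cell cannot be told apart.

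At 10 dpa, in ovules with elongating fibre, the KCS12 signals were 1.14, 1.22 and 1.49 in control and −1.29, −1.70 and −1.14 in drought. The 2 groups were 2.28 apart at their nearest arrays, and drought replicate 2 was the lowest of the 6. The log2 difference was −2.66 ± 0.13 (SE, n = 3 per group, limma adjusted p = 1.10e-13), against 31.8% of all probe sets called lower and 33.2% whose drought arrays all lay below the controls. Of the 23973 probe sets 368 (1.54%) had a lower difference at this stage.

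At 20 dpa, when fibre lays down its secondary wall, KCS12 signals were 1.55, 1.63 and 1.60 in control and −1.67, −1.84 and −1.55 in drought. The nearest arrays of the 2 groups were 3.10 apart, far more than the SD of 0.039 in control or 0.14 in drought. The log2 difference was −3.28 ± 0.13 (SE, n = 3 per group, limma adjusted p = 1.00e-14), where 34.0% of all probe sets were called lower and 35.9% did not overlap in that direction. Only 87 probe sets (0.363%) had a lower difference at 20 dpa, and 43 (0.179%) had a lower mean over the 4 stages, which for KCS12 was −1.78 ± 0.064 (SE, limma adjusted p = 9.23e-16, with 36.9% of all probe sets called lower).

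**Figure D1:**
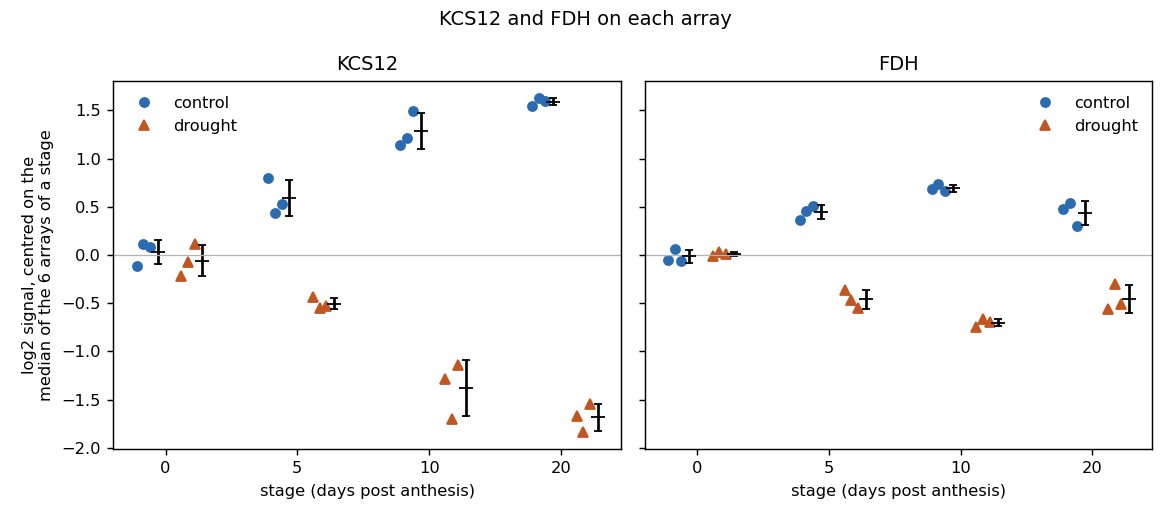
Centred log2 signal of KCS12 (left) and FDH (right) on each of the 24 arrays by stage in days post anthesis, with circles for control, triangles for drought, and bars for the mean ± SD of 3 arrays. Control and drought overlap at 0 dpa and are apart at 5, 10 and 20 dpa for both genes; because each stage is centred on its own median, only the gap between the groups of a stage can be read, not a rise or fall of either group over time.

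FDH was likewise not called at 0 dpa and lower in drought at the 3 later stages, but its fall was 1.87-fold at 5 dpa, 2.63-fold at 10 dpa and 1.86-fold at 20 dpa. At 0 dpa its centred log2 signal was −0.049, 0.067 and −0.060 in control and −0.0077, 0.030 and 0.0077 in drought. The drought arrays lay inside the range of the controls, and the log2 difference was 0.024 ± 0.072 (SE, n = 3 per group, 95% interval −0.13 to 0.17, limma adjusted p = 0.816). A fall as large as those of the later stages lies outside this interval.

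At 5 dpa FDH stood at 0.36, 0.45 and 0.51 in control and at −0.36, −0.47 and −0.55 in drought. The groups were apart, and the log2 difference was −0.90 ± 0.072 (SE, n = 3 per group, limma adjusted p = 6.81e-10). At 5 dpa 38.5% of all probe sets were apart in this direction and 33.4% were called lower. At 10 dpa the signals were 0.68, 0.73 and 0.67 in control and −0.74, −0.67 and −0.70 in drought, with SDs of 0.036 and 0.039, and the log2 difference was −1.40 ± 0.072 (SE, n = 3 per group, limma adjusted p = 3.22e-13). This was the lowest of the 4 differences of FDH, and 1447 probe sets (6.04%) stood lower at that stage. The drought arrays lay wholly below the controls for 33.2% of all probe sets at 10 dpa, and 31.8% were called lower.

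At 20 dpa FDH stood at 0.48, 0.54 and 0.30 in control ovules and at −0.56, −0.30 and −0.51 in drought ovules. The groups were again apart, by 0.59 at their nearest arrays, which were control replicate 3 and drought replicate 2. The log2 difference was −0.89 ± 0.072 (SE, n = 3 per group, limma adjusted p = 1.01e-09). At 20 dpa 35.9% of all probe sets were apart in this direction, 34.0% were called lower and 1400 (5.84%) had a lower difference. Of all probe sets 1280 (5.34%) shared the course of KCS12 and FDH, not called at 0 dpa and called lower at 5, 10 and 20 dpa, and 11.5% were called lower at the 3 later stages whatever they did at 0 dpa.

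The change of the drought effect between stages was tested directly as the difference of 2 stage differences. The RNA came from whole bolls at 0 and 5 dpa and from ovules at 10 and 20 dpa. Where a comparison crosses from bolls to ovules, stage and tissue cannot be told apart. For KCS12 all 6 pairs of stages passed the test: the effect deepened by −1.01 ± 0.18 in log2 (SE, limma adjusted p = 8.39e-05) from 0 to 5 dpa, by −1.56 ± 0.18 (limma adjusted p = 3.64e-07) from 5 to 10 dpa and by −0.62 ± 0.18 (limma adjusted p = 0.00570) from 10 to 20 dpa. The first of these steps was −0.54 with scaling on the poly-A controls (adjusted p = 0.115). The last step also depended on the scale of the arrays, at −0.46 on the poly-A controls (adjusted p = 0.197), 0.13 on the hybridisation controls (adjusted p = 0.615) and −0.13 with a covariate for the 5′ minus 3′ signal (adjusted p = 0.744). These 3 differences between stages were called for 53.3%, 46.6% and 59.9% of all probe sets, and those from 0 to 10, 0 to 20 and 5 to 20 dpa for 58.4%, 44.8% and 57.9%.

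FDH took another course. Its effect deepened by −0.93 ± 0.10 (SE, limma adjusted p = 1.46e-07) from 0 to 5 dpa, or −0.46 without passing the test on the poly-A scale (adjusted p = 0.0825), and by −0.49 ± 0.10 (limma adjusted p = 0.000387) from 5 to 10 dpa. From 10 to 20 dpa it moved back by 0.50 ± 0.10 (limma adjusted p = 0.000213), or by 0.33 with the 5′ minus 3′ covariate (adjusted p = 0.110). The effects at 5 and 20 dpa differed by 0.0078, with a 95% interval of −0.20 to 0.22 (limma adjusted p = 0.953), and by −1.33 on the poly-A scale (adjusted p = 8.47e-07).

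**Figure D2:**
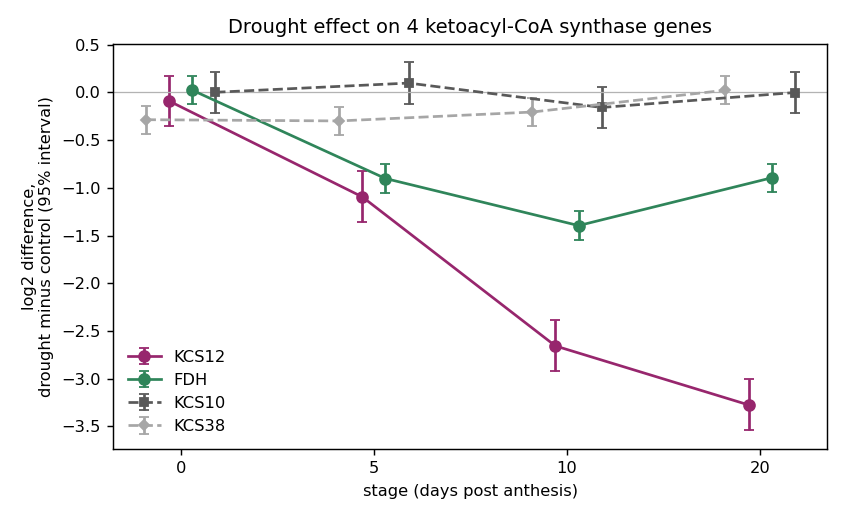
Log2 difference (drought minus control) of 4 ketoacyl-CoA synthase genes at each stage in days post anthesis, with 95% intervals from the limma fit to 3 arrays per group. KCS12 runs from −0.090 to −3.28 and FDH reaches −1.40 at 10 dpa and −0.89 at 20 dpa, while KCS10 and KCS38 lie between −0.30 and 0.099.

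KCS12 and FDH were also compared within each array, as the KCS12 value minus the FDH value, a quantity that does not change with the scale of the array. At 0 dpa this was −0.061, 0.051 and 0.14 in control and −0.21, −0.11 and 0.10 in drought, and at 5 dpa 0.43, −0.014 and 0.024 in control and −0.075, −0.086 and 0.028 in drought. At both stages the groups overlapped. At 10 dpa it was 0.45, 0.48 and 0.83 in control against −0.55, −1.03 and −0.44 in drought, and at 20 dpa 1.07, 1.09 and 1.30 against −1.11, −1.54 and −1.04, with no overlap.

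From control to drought KCS12 thus changed against FDH by −0.11 in log2 at 0 dpa, −0.19 at 5 dpa, −1.26 at 10 dpa and −2.38 at 20 dpa, the last a 5.21-fold loss relative to FDH. What related transcripts add to the signal of the FDH probe set, of suffix _x_at, was not tested. The mean over the 4 stages was −0.99 (exact permutation test within stages, two-sided, p = 0.000237 over 160000 labellings), and leaving out any 1 array kept it between −1.02 and −0.94. With a covariate for the 5′ minus 3′ signal, tried after seeing the data, the mean was −0.48 (exact permutation test, two-sided, p = 0.0210). The stage values were then 0.43, 0.050, −0.97 and −1.43 at 0, 5, 10 and 20 dpa. Within a single stage an exact test of 3 arrays against 3 cannot go below p = 0.1. The exact p was 0.4 at 0 dpa, 0.3 at 5 dpa and 0.1 at both later stages.

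**Figure D3:**
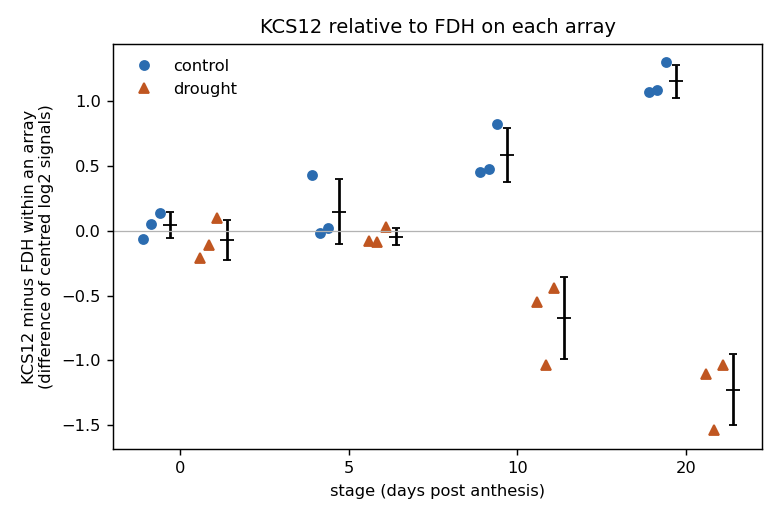
KCS12 minus FDH on each array (difference of centred log2 signals) by stage in days post anthesis, with circles for control, triangles for drought and bars for the mean ± SD of 3 arrays. The groups overlap at 0 and 5 dpa and are apart at 10 and 20 dpa, where drought minus control is −1.26 and −2.38.

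Both genes stayed lower in drought at 5, 10 and 20 dpa, with an adjusted p under the threshold, under every alternative tried, while their size moved with the scale. KCS12 ran from −1.17 to −0.85 at 5 dpa, from −3.92 to −2.44 at 10 dpa and from −4.37 to −2.57 at 20 dpa. FDH ran from −0.96 to −0.66, from −2.65 to −1.37 and from −1.99 to −0.52. The lowest values at 10 and 20 dpa came from the poly-A scale and the value of −0.52 from the hybridisation controls. With a covariate for the 5′ minus 3′ signal KCS12 stood at −2.57 and FDH at −1.14 at 20 dpa. At 0 dpa neither gene was called under any alternative (limma adjusted p from 0.236 to 0.993). Some alternatives also widened the SE. Scaling on the hybridisation controls took it from 0.13 to 0.17 for KCS12 and from 0.072 to 0.17 for FDH. The 5′ minus 3′ covariate took it to 0.34 and 0.20 at 20 dpa. A call lost under either can thus come from a wider SE at a similar value.

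**Figure D4:**
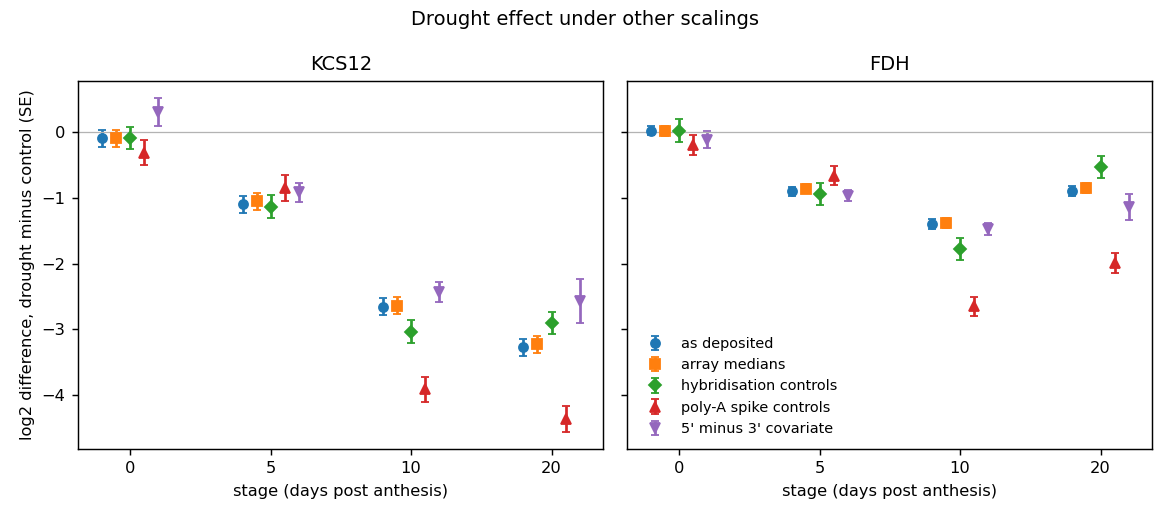
Log2 difference (drought minus control, ± SE from limma) of KCS12 (left) and FDH (right) by stage in days post anthesis, as deposited, with arrays scaled on their medians, on hybridisation controls or on poly-A controls, and with a covariate for the 5′ minus 3′ signal. All values at 5, 10 and 20 dpa are below 0, and the poly-A scale gives −4.37 for KCS12 and −1.99 for FDH at 20 dpa.

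The list of very-long-chain elongation genes held 2 further genes, both ketoacyl-CoA synthases, and the reductases and dehydratase of the cycle were not analysed here. KCS10 (LOC107945886), read by a probe set of antisense design, was not called at any stage. Its log2 differences were 0.0022, 0.099, −0.16 and −0.00047 at 0, 5, 10 and 20 dpa, with SE 0.10 and 95% intervals within −0.37 to 0.32. KCS38 (LOC107925445) was 0.29, 0.30 and 0.21 lower at 0, 5 and 10 dpa in log2 and stood at 0.024 at 20 dpa. KCS38 has 4 probe sets, of which only 1 was examined here. Several genes of the other lists also had more than 1, of which only 1 was read.

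Several of these small values, or only their calls, changed with the scale. On the poly-A controls KCS10 became −1.42 at 10 dpa and −1.10 at 20 dpa and KCS38 −1.07 at 20 dpa, all with an adjusted p under the threshold, while KCS38 stood at −0.055 at 5 dpa. On the hybridisation controls KCS38 was −0.28 at 0 dpa, near its deposited −0.29, and −0.34 at 5 dpa, neither called. At 20 dpa KCS38 was 0.39 there (limma adjusted p = 0.0467). KCS10 stood at −0.54 at 10 dpa on that scale (limma adjusted p = 0.00457). With the 5′ minus 3′ covariate KCS38 was −0.0090 at 0 dpa and −0.054 at 10 dpa, neither called, and 0.51 at 20 dpa (adjusted p = 0.0416). The median log2 difference of the 4 synthase genes was −0.044, −0.60, −0.80 and −0.45 at 0, 5, 10 and 20 dpa, beside 0.0070, −0.052, −0.024 and −0.067 over all probe sets. KCS12 and FDH are themselves among these 4 genes, so this median does not show a fall of the synthase genes as a family. As deposited, KCS10 and KCS38 lay between −0.30 and 0.099 at all stages.

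Listed genes that make or modify fatty acids were mostly lower at 5 and 10 dpa. Of the 8 listed genes of fatty acid synthesis, desaturation and modification, 7 fell and 1 rose at 5 dpa, although FatB1, KAS2-1 and sad1 did not pass on the poly-A scale. At 10 dpa 6 fell and 2 did not pass the test, and on the poly-A and the hybridisation scale all 8 fell. Called lower were 33.4% of all probe sets at 5 dpa and 31.8% at 10 dpa, and called higher 24.8% and 28.5%. On the poly-A and the hybridisation scale 21562 and 12831 of the 23973 probe sets were called lower at 10 dpa. KASIII (LOC107890650), whose product starts fatty acid synthesis in the plastid, stood at −0.74 ± 0.059 (SE) at 5 dpa and −1.13 ± 0.059 at 10 dpa. Among the cyclopropane synthase genes, CPA-FAS-2 (LOC107936133) had the largest difference of the list at 10 dpa, −3.02 ± 0.066, and CPA-FAS-1 (LOC107933118) that at 5 dpa, −2.05 ± 0.18. At 5 dpa CPA-FAS-2 stood at −1.32 and CPA-FAS-3 (LOC107932144) at −1.08.

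KAS2-1 (LOC107893372), named for the plastid condensing enzyme that makes stearoyl chains, lies near FDH on chromosome A13, with 10 annotated genes between them. Its log2 difference was −0.47 ± 0.039 (SE) at 5 dpa and −0.67 ± 0.039 at 10 dpa. FatB1 (LOC107932873), a thioesterase gene that frees acyl chains for export from the plastid, stood at −0.42 ± 0.065 at 5 dpa and −0.59 ± 0.065 at 10 dpa. The desaturase gene FAD78-1A (LOC107899542) was the one that rose at 5 dpa, by 0.30 ± 0.091, or 0.26 without passing the test when scaled on the hybridisation controls. At 10 dpa FAD78-1A was among the genes that fell, at −1.42 ± 0.091.

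At 0 dpa FAD78-1A, FatB1 and KAS2-1 rose and CPA-FAS-1 and CPA-FAS-2 fell, but none of these 5 calls held under all scalings. The 3 rises did not pass on the hybridisation controls, where FAD78-1A stood at 0.32, FatB1 at 0.29 and KAS2-1 at 0.11. These values are close to the deposited 0.31, 0.29 and 0.11. Nor did the rises pass on the poly-A scale, where FAD78-1A stood at 0.095, FatB1 at 0.072 and KAS2-1 at −0.11. Both falls did not pass with the 5′ minus 3′ covariate, at −0.13 for CPA-FAS-1 and −0.20 for CPA-FAS-2. At 20 dpa 2 rose and 4 fell, but sad1 (0.17) turned to −0.93 on the poly-A scale, KAS2-1 (−0.23) to 0.14 on the hybridisation controls and CPA-FAS-1 (−0.85) to 0.022 with the 5′ minus 3′ covariate. KASIII (−0.50) and CPA-FAS-2 (−0.72) kept their direction but did not pass the test on the hybridisation controls or with that covariate. KASIII stood at −0.12 on the hybridisation controls and −0.43 with the covariate, and CPA-FAS-2 at −0.35 and −0.17. The largest difference at 20 dpa was the rise of FAD78-1A by 1.87 ± 0.091. The list's median was −0.026, −0.60, −0.63 and −0.21 at the 4 stages. Of all probe sets 22.9% were called lower and 21.4% higher at 0 dpa, and 34.0% lower and 26.0% higher at 20 dpa.

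**Figure D5:**
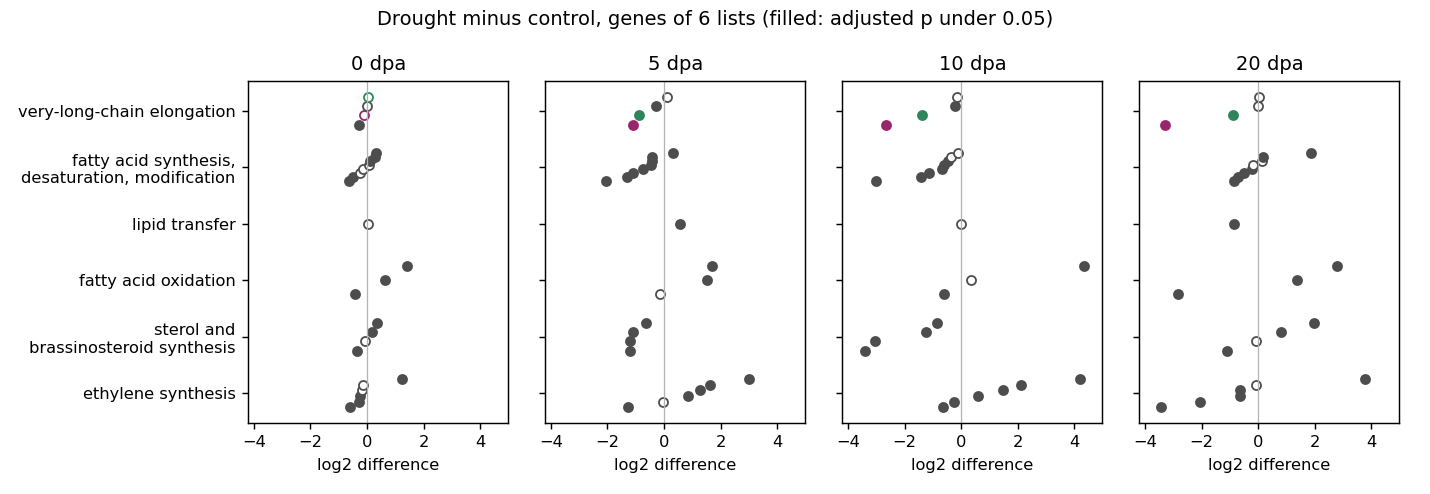
Log2 difference (drought minus control) of each gene of 6 lists at 0, 5, 10 and 20 dpa, 1 point per gene, filled where the limma adjusted p was under 0.05, with KCS12 in purple and FDH in green. KCS12 at −3.28 is the lowest of the elongation genes at 20 dpa, where the sterol genes run from −1.11 to 1.98.

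Sterols share the membranes with very-long-chain lipids. All 4 listed genes of sterol and brassinosteroid synthesis fell at 5 dpa and at 10 dpa, with the sterol methyltransferase gene SMT1 (LOC107950679) at −0.63 and −1.25 and the steroid reductase gene DET2 (LOC107948867) at −1.21 and −0.87. At these 2 stages 33.4% and 31.8% of all probe sets were called lower. At 20 dpa DET2 fell (−1.11), while SMT2-2 (LOC107905551) rose by 1.98 and SMT2-1 (LOC107959396) by 0.81, the latter turning to −0.28 on the poly-A scale. With the 5′ minus 3′ covariate SMT2-2 stood at 0.67 and was not called. KCS12 and FDH were both lower at that stage. The medians were 0.036, −1.16, −2.15 and 0.36.

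Genes of fatty acid breakdown and oxidation went various ways. The multifunctional protein gene MFP (LOC107932835), whose product acts in peroxisomal beta-oxidation, rose by 1.41 at 0 dpa, 1.70 at 5 dpa and 2.79 at 20 dpa, with 0.62 at 0 dpa not passing under the 5′ minus 3′ covariate. At 10 dpa MFP stood at 0.34 and was not called, and it fell to −0.92 on the poly-A scale. The acyl-CoA oxidase gene ACX (LOC107886061) rose by 0.63 at 0 dpa, which turned to −0.11 with that covariate. It fell by 0.59 at 10 dpa and rose by 1.39 at 20 dpa, or 0.29 on the poly-A scale and 0.088 with the 5′ minus 3′ covariate, neither passing the test. Lox1 (LOC107919998), a lipoxygenase gene, was 0.42 lower at 0 dpa (−0.42 on the hybridisation controls too, but not passing there). It rose by 1.51 at 5 dpa and 4.34 at 10 dpa and fell by 2.83 at 20 dpa. The lipid transfer gene FSLTP2 (LOC107896815) rose by 0.56 at 5 dpa, stood at −0.015 at 10 dpa and fell by 0.85 at 20 dpa.

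Of the 6 genes of ethylene synthesis 4 rose and 1 fell at 5 dpa, 4 rose and 2 fell at 10 dpa, and 1 rose and 4 fell at 20 dpa. At these stages 24.8%, 28.5% and 26.0% of all probe sets were called higher and 33.4%, 31.8% and 34.0% lower. At 0 dpa 1 rose (ACS3, by 1.23) and 3 fell, where 21.4% of all probe sets were called higher and 22.9% lower. The falls were of ACO3 (−0.61), ACO1 (LOC107905899, −0.24) and ACS1 (−0.27). Those of ACO1 and ACS1 did not pass on the hybridisation controls or with the 5′ minus 3′ covariate. The ACC oxidase gene ACO3 (LOC107915412) rose by 1.62 at 5 dpa and 1.48 at 10 dpa, the latter 0.22 without passing on the poly-A scale, and fell by 3.45 at 20 dpa. The ACC synthase gene ACS3 (LOC107947061, also ACS6) rose by 3.01 at 5 dpa, 0.61 at 10 dpa and 3.79 at 20 dpa, but stood at −0.65 at 10 dpa on the poly-A scale. ACO1 (LOC107905899) stood at 1.26 at 5 dpa and 4.21 at 10 dpa. Another gene named ACO1 (LOC107954048) stood at −1.26, −0.65 and −2.07 at 5, 10 and 20 dpa. ACS (LOC107923295) stood at 0.85 at 5 dpa and 2.13 at 10 dpa and was not called at 20 dpa. On the hybridisation controls ACS3 at 10 dpa (0.23), the ACC oxidase gene ACO1 (LOC107905899) at 20 dpa (−0.28) and the ACC synthase gene ACS1 at 20 dpa (−0.26) did not pass the test.

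Most fibre markers were lower at the stages where KCS12 and FDH were lower. Of 7 listed fibre genes 5 fell at 5 dpa, 5 at 10 dpa and 6 at 20 dpa, and 1 rose at 0, 5 and 20 dpa each. The 7 include the expansin genes EXP1, EXPA3D, EXPA11A and EXPA13D. Of all probe sets 33.4%, 31.8% and 34.0% were called lower at 5, 10 and 20 dpa. Called higher were 21.4%, 24.8% and 26.0% at 0, 5 and 20 dpa. The rise at 0 dpa, of EXPA13D (LOC107891056) by 0.25, did not pass on the poly-A scale (0.029). Nor did it pass on the hybridisation controls (0.25) or with the 5′ minus 3′ covariate (0.28). At 5 dpa the gene that rose was FSLTP2, by 0.56. At 20 dpa EXPA11A (LOC107885990) rose by 0.65 but turned to −0.45 on the poly-A scale and −0.041 with the 5′ minus 3′ covariate, and EXPA13D (−0.29) turned to 0.079 on the hybridisation controls and did not pass with that covariate. Rac13 (−0.51 at 20 dpa) did not pass on the hybridisation controls (−0.14) or with the covariate (−0.020), and E6 at 10 dpa did not pass with the covariate (−0.19). At 10 dpa FSLTP2 (−0.015) and Rac13 (−0.0015) were not called, but both fell on the poly-A and hybridisation scales. The mean centred log2 signal of the 7 genes was 0.39 to 0.41 in control and −0.41 to −0.39 in drought arrays at 5 dpa, 0.72 to 0.76 against −0.78 to −0.69 at 10 dpa, and 0.35 to 0.38 against −0.41 to −0.38 at 20 dpa. At 0 dpa it was −0.066 to −0.021 against 0.017 to 0.085.

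The fibre gene E6 (LOC107913945) stood at −1.17 ± 0.083 (SE) at 5 dpa, −0.27 ± 0.083 at 10 dpa and −0.96 ± 0.083 at 20 dpa, while KCS12 stood at −1.09, −2.66 and −3.28. The 7 fibre genes ran from −1.63 to 0.56, from −4.00 to −0.0015 and from −1.99 to 0.65 at these stages. At 10 dpa EXPA11A stood at −4.00, EXPA3D at −2.93, EXPA13D at −2.51 and EXP1 (LOC107914543) at −0.63. The lowest at 5 dpa was EXPA3D and at 20 dpa EXP1. The part of fibre content in the falls of KCS12 and FDH was not tested. Because the values are centred, it cannot be read from them whether a marker is present at all. The leaf gene RCA1 (LOC107942112) stood at 0.37, −3.46, −0.30 and −0.85 at 0, 5, 10 and 20 dpa, and was not called at 10 dpa. Its value at 0 dpa did not pass on the poly-A scale (0.15), on the hybridisation controls (0.37) or with the 5′ minus 3′ covariate (0.63), nor that at 20 dpa with the covariate (−0.38). The seed storage genes LegA (LOC107916455) and LEGB (LOC107914926) were not called before 20 dpa, when LegA fell by 1.81. LEGB stood at −0.19 at 20 dpa, at 0.18 on the hybridisation controls and at 0.026 with the 5′ minus 3′ covariate. No gene of the pollen or xylem lists was matched.

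The named genes closest to each member were found by the root mean square distance between their 4 log2 differences, over 245 genes. Closest to KCS12 were the dihydroflavonol reductase gene DFR (LOC107957957, distance 0.31), CMDR1 (LOC107942025, 0.46), the MYB factor gene GHMYB38 (LOC107932200, 0.97), Ssh2 (LOC107953590, 0.98) and the expansin gene EXPA3D (LOC107904848, 1.01), where the median distance was 2.08. DFR stood at −0.28, −0.90, −2.25 and −2.89 at 0, 5, 10 and 20 dpa and CMDR1 at 0.19, −1.68, −2.84 and −2.66. FDH ranked 21 among these genes by distance from KCS12, at 1.35.

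Closest to FDH were the MADS-box gene MADS-9 (LOC107893918, distance 0.14), the chalcone synthase gene CHS2 (LOC107927759, 0.23), KASIII (0.27), the homeodomain gene HOX3 (LOC107904747, 0.28), known to promote cotton fibre elongation, and the acyl-CoA-binding protein gene ACBP (LOC107963602, 0.29). The median distance from FDH was 0.92. MADS-9 stood at 0.011, −0.76, −1.63 and −0.83, and ACBP at −0.21, −0.62, −1.51 and −0.45. KCS12 ranked 185 by distance from FDH. These distances rest on 4 stages measured on the same 24 arrays.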

How the data were processed

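The authors deposited 1 table of 24132 probe sets by 24 arrays, used here as log2 values. Per the submitters' processing notes they were made by RMA (version not given in the sources used here). Each stage's median was 0 for every probe set, to within 5e-07, so the deposited values are taken to have been centred within stages, a step the sources used here do not describe. A filter on dim probe sets could not be computed from such values. Tests covered 23973 probe sets, without the 159 controls. The 8 group means were fitted to all 24 arrays with limma 3.58.1 in R 4.3.3 (16 residual degrees of freedom). Two-sided p-values were adjusted per contrast over all probe sets (Benjamini-Hochberg).

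Members and lists were chosen with earlier results of these data known. Lists were matched on gene synonyms, with Roman numerals counted as numbers. All 520 genes were found in the RefSeq table and 246 had a synonym. Each gene was read by 1 probe set, also where it had more, chosen without regard to values: sense before antisense design, then by suffix (_at first, _x_at last), then by ID. KCS38 and ACS had 4 probe sets, ACX and EXPA13D 3, and FatB1, KAS2-1, FSLTP2, EXPA3D and LEGB 2. The others of these genes were not examined. The genes described were both members, list genes (all in lists of up to 6, the 3 largest differences of a stage in longer ones) and the 5 closest genes with a synonym. List genes were not all described at every stage. FatB1, KASIII, KAS2-1, sad1 and the marker genes were picked after their values were seen. No 2 arrays were identical. Same-numbered control and drought arrays of a stage deviated together with correlations from −0.10 to 0.11, so the numbers do not pair them. The fit was tested on simulated data. Alternatives were each array left out, a replicate block, fits to the compared stages alone, 4 scalings or covariates, array weights and robust variances. The number of arrays limits the precision.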

Additional observations from a re-analysis of the deposited data

Results flagged for a closer look

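The drought effect differed between stages by the test of the difference itself. For KCS12 (log2, later stage minus earlier) it did so from 0 to 5 dpa (−1.01), from 5 to 10 dpa (−1.56), from 10 to 20 dpa (−0.62), from 0 to 10 dpa (−2.57), from 0 to 20 dpa (−3.19) and from 5 to 20 dpa (−2.18). For FDH it did so from 0 to 5 dpa (−0.93), from 5 to 10 dpa (−0.49), from 10 to 20 dpa (0.50), from 0 to 10 dpa (−1.42) and from 0 to 20 dpa (−0.92). Comparisons of 0 or 5 dpa with 10 or 20 dpa also set bolls against ovules, so stage and tissue cannot be told apart there. Groups of 3 arrays are too small for a test of outlying samples.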

How the results depend on the processing

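Of 647 values computed under alternatives, 619 kept their direction and their side of the threshold, or for counts stayed within 1.5 times. With scaling on the poly-A controls the called probe sets numbered 6578 at 0 dpa, 22746 at 10 dpa, 22579 at 20 dpa, 23097 for 5 to 10 dpa, 20384 for 0 to 20 dpa and 21672 for 5 to 20 dpa. On that scale the change from 0 to 5 dpa was −0.54 for KCS12 and −0.46 for FDH, that of KCS12 from 10 to 20 dpa −0.46, all without passing the test, and that of FDH from 5 to 20 dpa turned to −1.33. FDH at 0 dpa turned to −0.20, not called. The scaling subtracts the shift of those controls from every probe set. With the 5′ minus 3′ covariate 3686 probe sets were called at 0 dpa, 4359 at 20 dpa and 8249 for the mean, and the change from 10 to 20 dpa was −0.13 for KCS12 and 0.33 for FDH, not passing; the cause was not tested. Values that were not called either way changed sign: with the covariate KCS12 at 0 dpa (0.31), FDH at 0 dpa (−0.12) and FDH from 5 to 20 dpa (−0.18), and the last also with array weights (−0.031) and with single arrays left out (−0.073 to 0.060). With scaling on hybridisation controls, chosen after seeing the data, 4246 were called at 0 dpa and 7414 for 0 to 5 dpa, KCS12 turned to 0.13 from 10 to 20 dpa, and FDH from 0 to 20 dpa was −0.55 without passing. The main counts were 10606, 13963, 14445 and 14380 at the 4 stages. Leaving out any 1 array ended no call of KCS12 or FDH. With the replicate number as a block the differences at 20 dpa were again −3.28 for KCS12 and −0.89 for FDH, and no call changed; 2 of 12 control arrays correlated best with the drought array of their own number. Other probe sets of a member could not be tried, as each had 1. No count depth applies, and signal over background cannot be read from centred values.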
